A study of Mus musculus with 947 samples.

Results

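The miR-29 family of the mouse consists of mmu-miR-29a-3p, mmu-miR-29b-3p and mmu-miR-29c-3p (written without the species prefix from here on), which share the bases that select their target mRNAs. These 3 mature miRNAs were taken by name from the small RNA tables of an aging cohort and a parabiosis cohort, which list 7883 RNAs (1076 of them miRNAs) and 5248 RNAs (795 miRNAs). All 3 members were measured in all 769 aging libraries and all 176 parabiosis libraries, and none was at 0 in any library. They were chosen by their correlation with age, measured in the same aging libraries. Values for that contrast are therefore descriptions with no test, while levels between tissues, sexes and parabiosis groups were tested.

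In the aging cohort, small RNA was sequenced from whole tissue of healthy C57BL/6JN mice of 10 ages, at 1 and 3 months and then every 3 months up to 27, with 553 of the 769 libraries from males and the others from females. Females reached 21 months, so the 24- and 27-month groups were male only. The 16 tissues were bone, brain, bone marrow, heart, kidney, limb muscle, liver, lung, pancreas, skin, small intestine, spleen and the adipose depots GAT (gonadal), SCAT (subcutaneous), MAT (mesenteric) and BAT (brown), with 31 to 56 libraries each. The parabiosis cohort held GAT, heart, kidney, limb muscle (tibialis anterior), liver and MAT of 30 male mice surgically joined in 15 pairs, so that the partners shared a circulation. Its groups were isochronic young (IY, 3 or 4.5 months, joined to another young mouse), heterochronic young (HY, 4 months, joined to an aged mouse), heterochronic aged (HA, 19 months) and isochronic aged (IA, 19 months). Every HY mouse was of a strain that no other group used. In HY minus IY the partner's age and the strain therefore cannot be told apart. In HA minus HY the ages of the mouse and its partner cannot be told apart from the strain. HA mice were joined to mice of that strain, so in HA minus IA the partner's age and the partner's strain cannot be told apart. IA mice 19A and 19B and HA mouse 20A were of another substrain than the other IY, HA and IA mice, and the study's sources differ on which of these was C57BL/6J and which C57BL/6JN.

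A miRNA guides a silencing complex to mRNAs that pair with its seed, bases 2 to 8 from the 5′ end, and lowers the output of those mRNAs. The miR-29 family is best known for targeting mRNAs of the extracellular matrix, among them collagens, elastin and fibrillin, and is studied in fibrosis of heart, liver, lung and kidney. It also targets DNA methyltransferases, and in muscle and brain it has been linked to differentiation and to aging.

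The mature sequences are shown because the members share a seed and differ in few later bases, which bears on how reads are assigned to them. Seeds are in capitals, and the sequences are from RefSeq (GRCm38.p6).
miR-29a-3p: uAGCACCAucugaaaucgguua
miR-29b-3p: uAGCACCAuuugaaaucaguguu
miR-29c-3p: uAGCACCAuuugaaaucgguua

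All 3 members carried 1 seed, and 0 other of 1679 mature miRNA names searched had it. Counted from 1 at the 5′ end, miR-29a-3p and miR-29c-3p of 22 bases differed at a single position, C10U, from the first to the second. From miR-29c-3p to miR-29b-3p the changes were G18A, U21G and A22U, and miR-29b-3p ended 1 base later, at 23 bases. The authors' alignment allowed 1 mismatch, so a read of miR-29a-3p could also match miR-29c-3p. Across aging libraries the level of miR-29c-3p ranged from 7.47% of that of miR-29a-3p, in a marrow library, to 157% in a limb muscle library, and how far reads were shared was not tested.

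The genes lie in a pair of clusters. On chromosome 1, plus strand, Mir29b-2 encodes miR-29b-3p at chr1:195037091-195037113 and Mir29c encodes miR-29c-3p at chr1:195037600-195037621. Both mature sequences fall in an exon of the non-coding transcript A330023F24Rik on the same strand, and antisense to an annotated exon of the protein-coding gene Cd46. On chromosome 6, minus strand, Mir29a encodes miR-29a-3p at chr6:31062673-31062694 and Mir29b-1 encodes miR-29b-3p at chr6:31063025-31063047, with 330 bases between them, and GENCODE lists only the miRNA genes there. Because miR-29b-3p has 2 precursor loci with the same mature sequence, its level cannot be divided between the clusters.

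Levels are given in reads per 1000000 mapped reads (rpmm), the unit deposited by the authors. The libraries held 2.29 M to 167 M mapped reads (M, 1000000 reads, median 20.1 M) in the aging cohort and 9.20 M to 47.6 M in the parabiosis cohort, so that counting error of the members was small. Many defining miRNAs were highest in the labeled tissue, such as miR-122-5p in liver (median 108491 rpmm, highest median elsewhere 89.1) and miR-208a-3p in heart (8373 against 210.2). Others were higher elsewhere. In the aging cohort these were miR-192-5p of kidney (13372 against 50129 in small intestine), miR-223-3p of spleen (540 against 10217 in marrow) and miR-150-5p of marrow (1454 against 5618 in spleen). In the parabiosis cohort miR-192-5p of kidney was higher in liver (13354 against 17945). The overall miRNA profile of 11 aging libraries (4 MAT, 3 SCAT, 2 bone, 1 pancreas, 1 skin) and 3 parabiosis MAT libraries was closest to another tissue, and the age correlations, the ratios of 21 to 3 months and the MAT contrasts that rest on them are given below also without them.

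All 3 members were abundant in every tissue, and miR-29c-3p was the least abundant member on average in each of them. MiR-29a-3p was highest in lung, at 13571 ± 5118 rpmm (SD, n = 55), and brain, at 15261 ± 7428 (n = 51), and lowest in pancreas, at 2796 ± 1102 (n = 45). MiR-29b-3p was highest in brain, at 26930 ± 7911 (n = 51), and lowest in bone, at 3321 ± 2426 (n = 48). MiR-29c-3p was highest in brain, at 4818 ± 1725 (n = 51), and lowest in marrow, at 328 ± 153 (n = 56). As geometric means, the highest and the lowest tissue differed 5.07-fold for miR-29a-3p, 10.1-fold for miR-29b-3p and 15.0-fold for miR-29c-3p. Scaled to miRNA reads only, the ranges were 3.75-fold, 9.10-fold and 9.36-fold, the lowest tissue of miR-29a-3p and miR-29b-3p became limb muscle, and the highest of miR-29c-3p became pancreas.

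**Figure D1:**
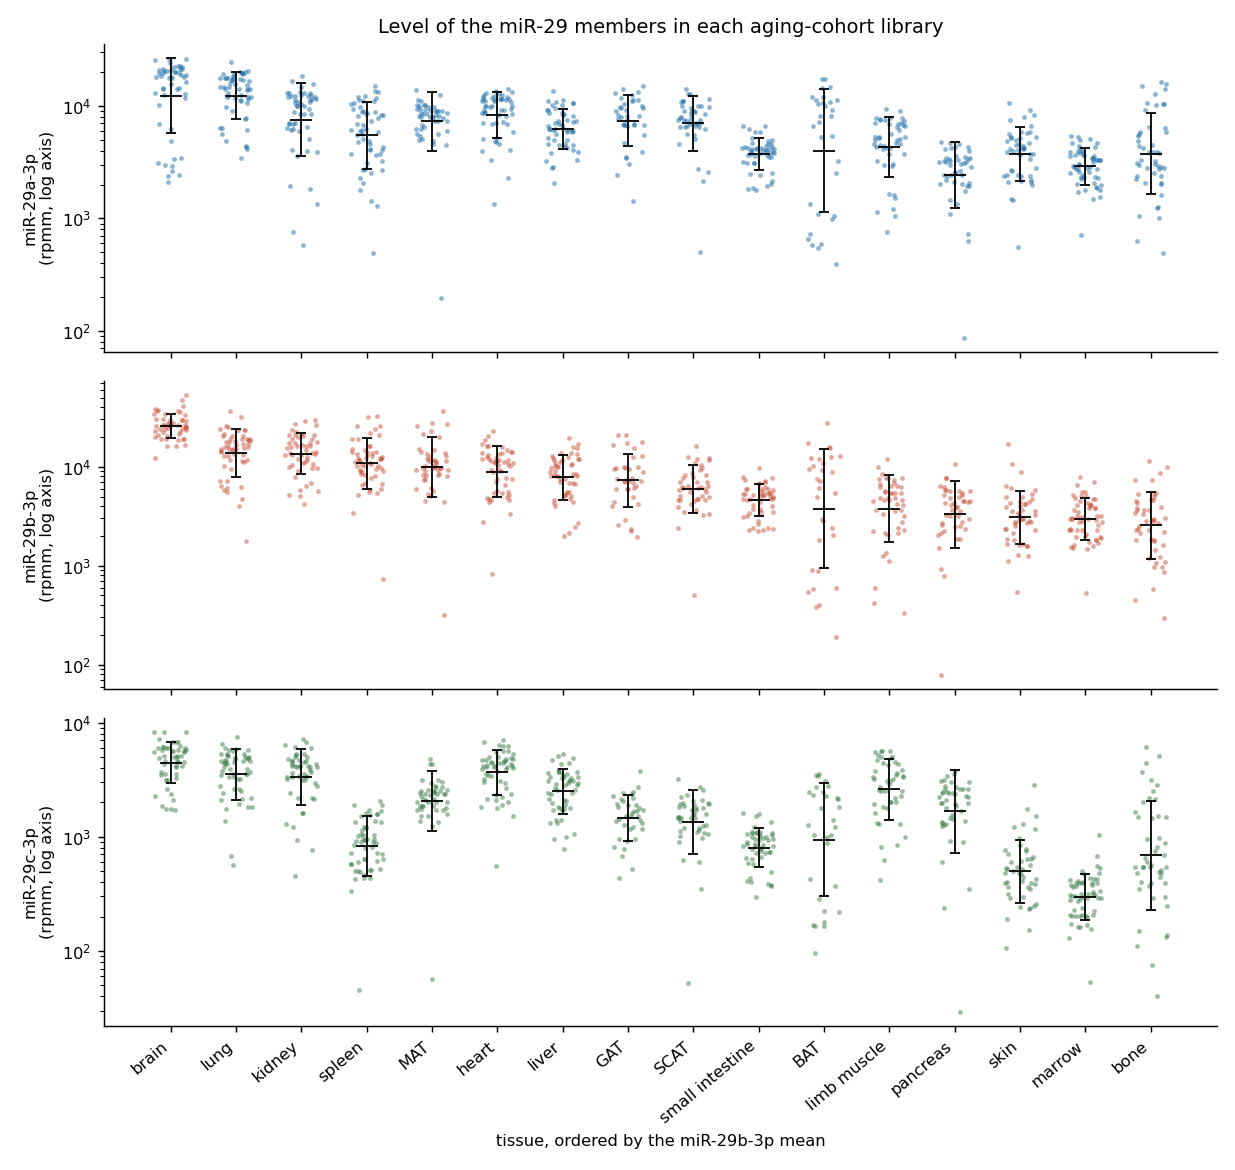
Level of each miR-29 member (rows) in rpmm on a log axis in the 16 tissues of the aging cohort, 1 point per library, with the mean and SD of the log2 level as black bars. Brain stands highest for miR-29b-3p, marrow lowest for miR-29c-3p, and a lower cloud of brain points is seen for miR-29a-3p.

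In the order of tissue means, most neighbors were not separated by a test. Neighbors were taken from the order of these same means, so their gaps were small by choice. The p-values do not account for that order, and the number of pairs separated does not measure how far tissues differ. A two-sided permutation test of the mean log2 level (100000 resamples, Benjamini-Hochberg over 45 neighbor pairs) separated 4 of 45 pairs. For miR-29b-3p, brain exceeded lung by 0.92 log2 (adjusted p = 0.000225, n = 51 and 55, raw p = 1e-05, the smallest that these resamples can give). For miR-29c-3p, skin exceeded marrow by 0.74 log2 (adjusted p = 0.000225, n = 47 and 56, raw p = 1e-05). For miR-29a-3p, brain exceeded heart by 0.56 log2 (adjusted p = 0.0261) and small intestine exceeded marrow by 0.35 log2 (adjusted p = 0.0099). Libraries of different tissues may come from the same mouse, which the titles do not tell, and they were treated as separate.

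The members took different shares of the family by tissue. MiR-29b-3p made up 61.2% ± 14.2 of the summed family level in spleen (SD, n = 55) and 59.0% ± 13.0 in brain (n = 51). MiR-29a-3p led in bone at 52.8% ± 9.17 (n = 48) and in skin at 51.1% ± 6.50 (n = 47). MiR-29c-3p ranged from 4.72% ± 1.16 in spleen and 4.87% ± 0.97 in marrow (n = 56) to 22.5% ± 3.26 in pancreas (n = 45) and 24.0% ± 5.15 in limb muscle (n = 47).

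Part of this composition followed the library numbers in the titles rather than a biological label. Grouping the numbers of each tissue into sets of 12, the sets accounted for 90.2% of the variance of the log2 ratio of miR-29b-3p to miR-29a-3p in brain, 81.0% in MAT, 72.6% in spleen, 70.9% in kidney and 55.1% in lung, with a median of 22.4% over the 16 tissues. The annotated plates, which were more groups per tissue than the sets, held 47.8%, 57.0%, 66.7%, 62.9% and 36.3% in these tissues, with a median of 33.5%. Ages held a median of 18.2%. In brain libraries numbered 25 to 36 the ratio ran from 3.85 to 12.2 (n = 12), and these 12 libraries spanned 8 ages. In the 39 other brain libraries it ran from 0.855 to 2.23, so the ranges did not overlap. MiR-29a-3p was 3624 ± 1555 rpmm in numbers 25 to 36 against 18842 ± 3998 in the others, and miR-29c-3p was 2506 ± 732 against 5530 ± 1246. MiR-29b-3p was 26082 ± 9364 against 27190 ± 7528. The summed miRNA level was also lower there, at 160123 to 336420 rpmm against 477334 to 729867. These sets were seen in the data and are not groups of the study, and what sets them apart was not tested.

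**Figure D2:**
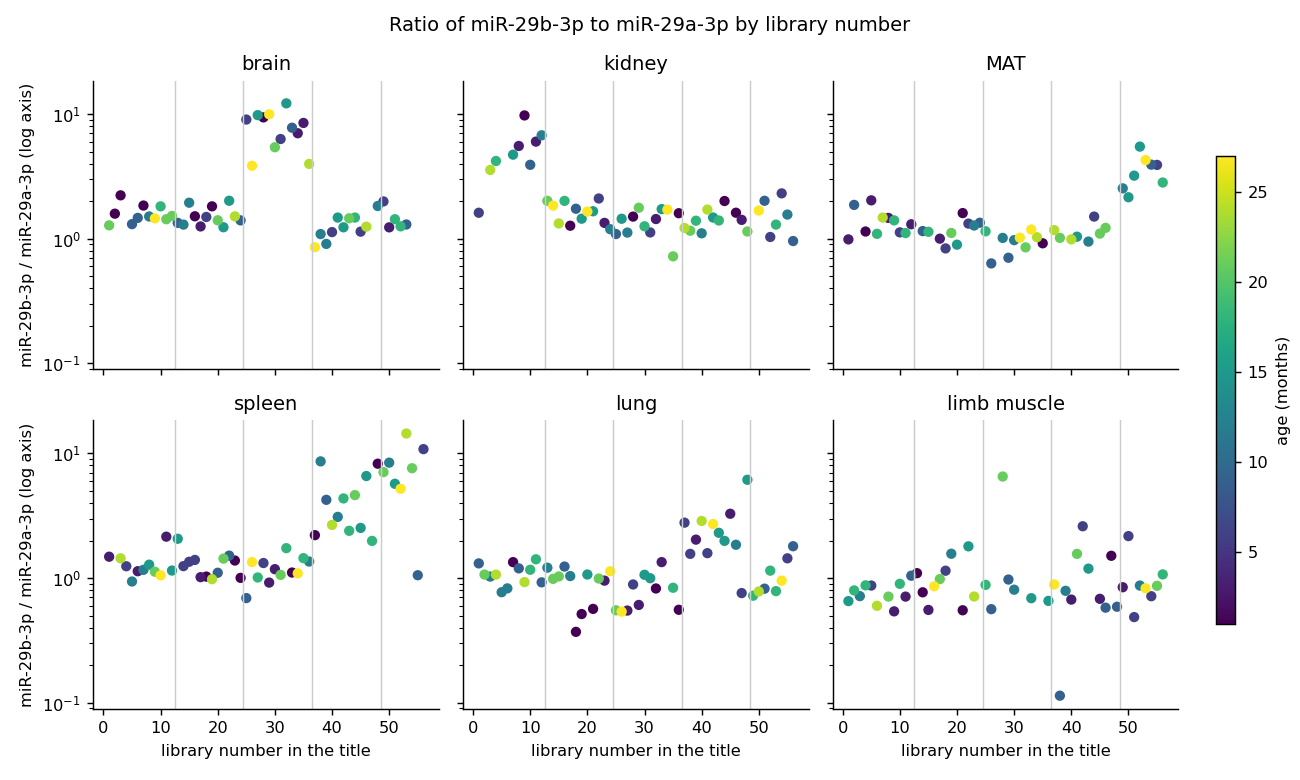
Ratio of miR-29b-3p to miR-29a-3p (log axis) against the library number in the title for 6 tissues of the aging cohort, 1 point per library, colored by age in months, with gray lines between sets of 12 numbers. The ratio steps up in 1 or 2 sets in brain, kidney, MAT, spleen and lung, across ages, and shows no such step in limb muscle, where sets held 3.73% of the variance.

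All 3 members were positively correlated with age in all 16 tissues (Spearman's rho over libraries). This direction is what the members were chosen for. With the study's threshold of rho above 0.5, miR-29a-3p was called in 8 tissues, miR-29c-3p in 6 and miR-29b-3p in 3, which makes 17 of 48 pairs of member and tissue, with 0 below -0.5. Over all miRNAs that reached 1 rpmm in 10% of a tissue's libraries, 3.75% of 8849 pairs passed the same threshold. Liver was called for all members, with rho of 0.69 for miR-29c-3p, 0.68 for miR-29b-3p and 0.62 for miR-29a-3p (n = 52). Marrow had the highest rho of miR-29a-3p, 0.64 (n = 56). Pancreas had the lowest rho of each member, 0.15, 0.01 and 0.06 for miR-29a-3p, miR-29b-3p and miR-29c-3p (n = 45). Just inside the threshold were miR-29b-3p in BAT (0.501), miR-29a-3p in kidney (0.505) and miR-29c-3p in lung (0.509), and just outside were miR-29b-3p in kidney (0.489), miR-29a-3p in lung (0.484) and miR-29c-3p in BAT (0.480).

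**Figure D3:**
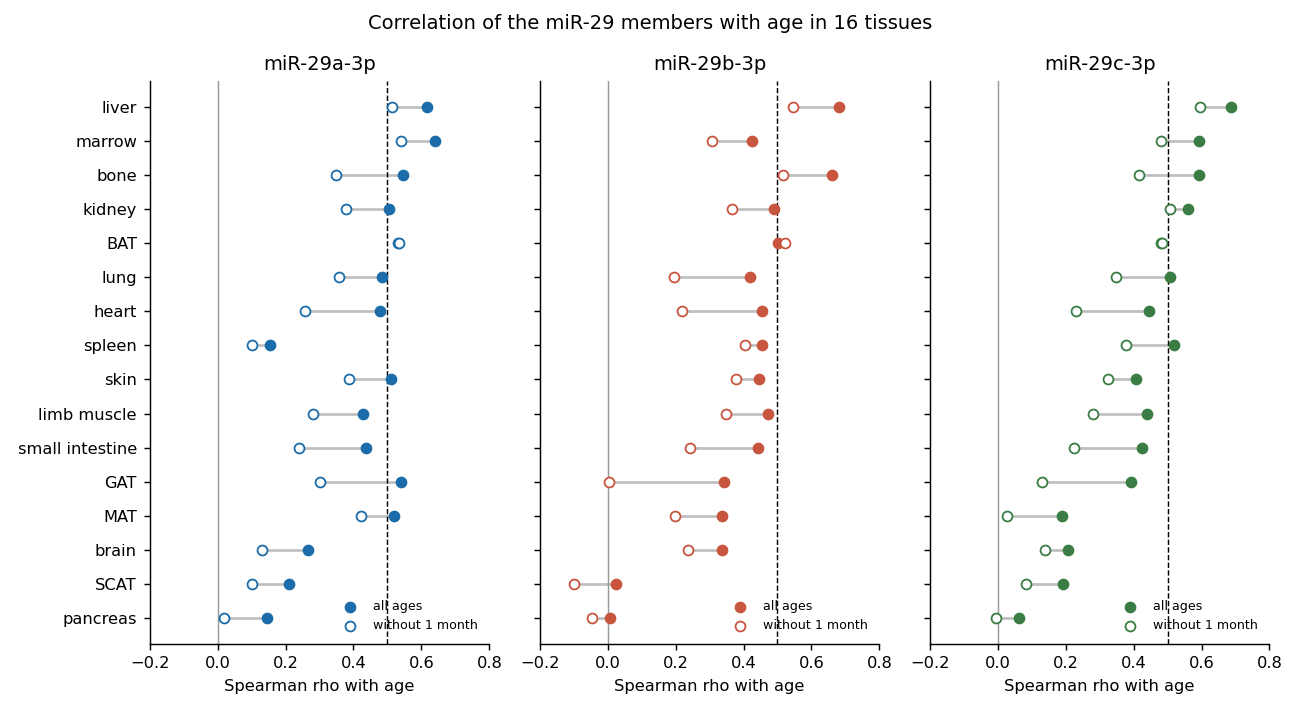
Spearman's rho with age for each miR-29 member in 16 tissues, filled for all ages and open without the 1-month libraries, with the threshold of 0.5 dashed. Liver lies at the top and pancreas at the bottom, and the open symbols lie to the left of the filled ones in every tissue but BAT, which has a single 1-month library.

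The correlation was weaker without the youngest mice. The mean was lowest at 1 month in 12 tissues for miR-29a-3p, 12 for miR-29b-3p and 11 for miR-29c-3p, and highest at 27 months in 10, 6 and 6 tissues. Without the 1-month libraries 8 of 48 pairs passed the threshold instead of 17. Scaled to miRNA reads only 21 passed, scaled by median-ratio size factors 23, with the means of the title-number sets removed 17, and without the libraries closest to another tissue 15, which lost miR-29a-3p in MAT (0.458) and skin (0.482).

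In liver, miR-29c-3p had a lowest, median and highest value of 960, 1357 and 1818 rpmm at 1 month (n = 6). At 3 months these were 1055, 1573 and 2400 rpmm (n = 6). At 21 months the 5 libraries had 788, 3271, 3584, 3865 and 4366 rpmm, and at 27 months the 4 libraries had 3655, 4418, 4679 and 4943. One 21-month library lay below every library of 1 and 3 months, and all others of 21 and 27 months lay above them. MiR-29b-3p in liver had 2716, 4805 and 5154 rpmm as lowest, median and highest at 3 months (n = 6), and 9050, 10157, 10168, 11812 and 12263 at 21 months, with no overlap. MiR-29a-3p in marrow had 1482, 2423 and 2920 rpmm at 3 months (n = 6) and 2994, 3221 and 4961 at 21 months (n = 6), again with no overlap.

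In limb muscle, miR-29b-3p had 416, 1261, 1328 and 2286 rpmm in the 4 libraries of 1 month. At 3 months it had 2039, 2271 and 3158 rpmm as lowest, median and highest (n = 6), and at 21 months 4871, 6421, 6619, 7398 and 7637. The 27-month libraries had 3646, 6244 and 7735 rpmm, so that the 21-month values lay above those of 3 months with no overlap, and the oldest mice had 1 value below and 1 above the 21-month range. In bone, miR-29c-3p had 148, 294 and 1449 rpmm at 3 months (n = 6) and 482, 808, 1645, 3674 and 6054 at 21 months, and these groups overlapped.

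**Figure D4:**
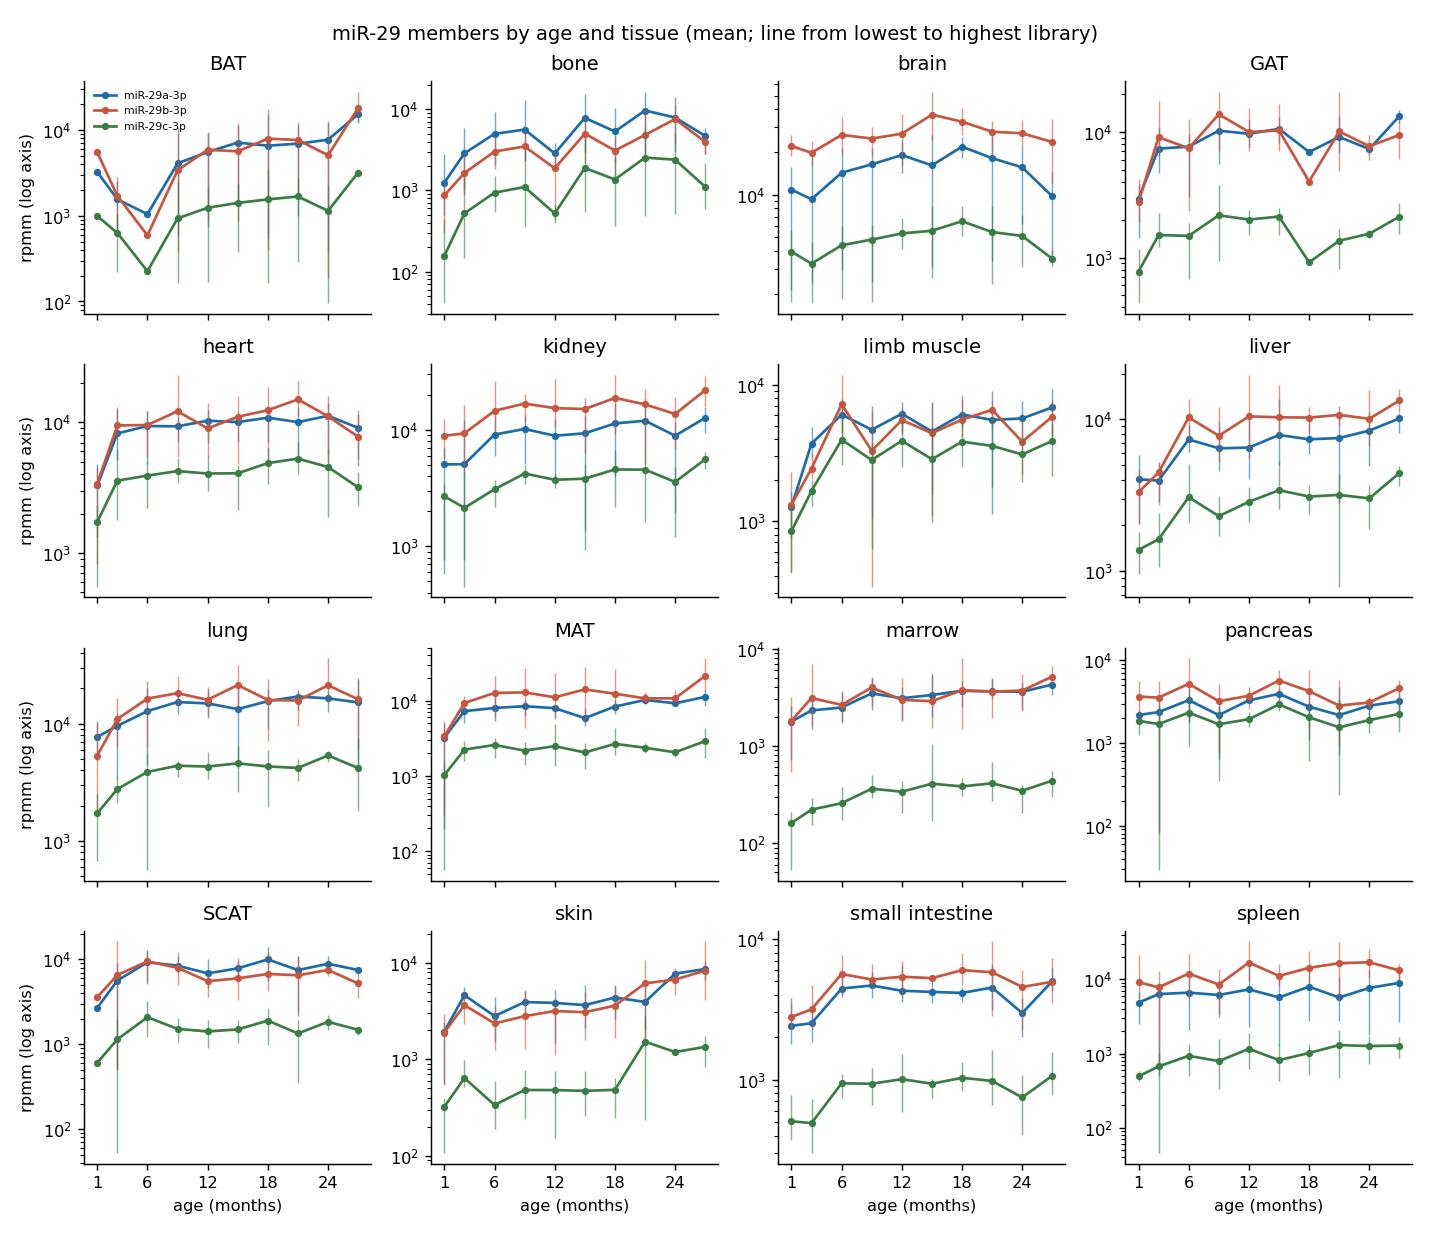
Mean level (points, rpmm, log axis) of the miR-29 members against age in months in each of 16 tissues, with vertical lines from the lowest to the highest library of an age. In 11 or 12 of the 16 tissues the mean is lowest at 1 month, while in BAT the single 6-month library lies lowest.

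Between 3 and 21 months the ratio of mean levels passed 3/2 in 7 of 14 tissues for miR-29a-3p, 7 for miR-29b-3p and 9 for miR-29c-3p. Over all miRNA and tissue pairs, 27.4% of 7776 passed it. The median ratio over tissues was 1.53 for miR-29a-3p, 1.51 for miR-29b-3p and 1.77 for miR-29c-3p. The highest ratio was 4.87, for miR-29c-3p in bone, and single libraries moved it to 7.56 (without 3-month library 18) and 3.17 (without 21-month library 22). Limb muscle and liver reached 2.70 and 2.39 for miR-29b-3p. In pancreas the ratio was 0.92 for miR-29a-3p, 0.80 for miR-29b-3p and 0.91 for miR-29c-3p, but the differences of mean log2 levels were positive, at 0.32, 0.32 and 0.35, so that no direction can be read there. Without pancreas library 02, the 3-month library closest to limb muscle, the ratios were 0.74, 0.64 and 0.73, and without 21-month library 50 they were 1.08, 0.94 and 1.11. Without bone library 37 (21 months), closest to SCAT, the bone ratios of miR-29a-3p, miR-29b-3p and miR-29c-3p were 3.28, 3.12 and 5.29 instead of 3.37, 2.94 and 4.87. Without SCAT library 16 (3 months), closest to bone, the SCAT ratios were 1.02, 0.76 and 0.89 instead of 1.33, 0.99 and 1.18.

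Single libraries also moved other ratios by over 3/2. MiR-29a-3p went from 1.95 to 2.99 in brain without 3-month library 17 and from 2.36 to 3.63 in kidney without 3-month library 23. MiR-29b-3p went from 1.11 to 0.72 in GAT without 21-month library 54 and from 0.99 to 1.97 in SCAT without 3-month library 43. The level of the other miRNAs also moved, and the median log2 difference of all miRNAs between 21 and 3 months was 0.80 in kidney, 0.61 in brain, 0.40 in pancreas, 0.38 in liver, 0.33 in bone and -0.42 in limb muscle. The 23 calls became 18 when scaled to miRNA reads only and 16 when scaled by median-ratio size factors. In kidney the ratio of miR-29b-3p was 1.77 and fell below 1, to 0.80 and 0.73, under these scalings. In brain, 3-month libraries 34 and 35 but only library 30 of 21 months fall in the title-number set 25 to 36, where miR-29a-3p was low. The brain ratios were thus not balanced for that set. By median-ratio size factors they were 1.38, 0.68 and 0.96 for miR-29a-3p, miR-29b-3p and miR-29c-3p instead of 1.95, 1.41 and 1.67.

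Markers of other cell types moved with age in some of the same tissues. In liver the summed level of 3 fibroblast and stromal miRNAs (miR-199a-3p, miR-199a-5p, miR-214-3p) had a rho of 0.57 with age and was at most 876 rpmm at 3 months and 692 to 2409 at 21 months. The sum of 4 white blood cell miRNAs had a rho of 0.47 in liver, 0.67 in MAT and 0.61 in kidney. In limb muscle the fibroblast sum had a rho of -0.47 and in marrow the white blood cell sum had -0.02. In whole tissue, a change in the number of cells of a type and in RNA per cell cannot be told apart, and the part of these cell types in the miR-29 values was not tested.

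Each precursor also gives a 5p arm, the opposite strand, which is mostly degraded. These arms were far less abundant. The median 3p to 5p ratios over tissues were 70.6 for miR-29a and 55.1 for miR-29c. For miR-29b-3p the median ratio was 1211 against miR-29b-1-5p and 492.6 against miR-29b-2-5p. The 5p arms carry different sequences and, for miR-29b, tell its loci apart. The rank correlation with age was above 0 in all 16 tissues for each 5p arm and passed 0.5 in 3 tissues for miR-29a-5p, 1 for miR-29b-1-5p, 3 for miR-29b-2-5p and 4 for miR-29c-5p. In bone, rho was 0.77 for miR-29c-5p, 0.66 for miR-29b-2-5p, 0.50 for miR-29a-5p and 0.27 for miR-29b-1-5p. In liver, where all 3p arms passed 0.5, no 5p arm did.

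Among 361 miRNAs outside the family measured in every tissue, the tissue profiles most like miR-29a-3p over the 16 tissue means were let-7c-2-3p (Pearson's r = 0.93), let-7a-1-3p (0.93) and miR-331-3p (0.91). For miR-29b-3p they were miR-3068-5p (0.95), let-7f-2-3p (0.90) and miR-551b-3p (0.84), and for miR-29c-3p miR-101a-5p (0.87), miR-1843a-3p (0.85) and miR-101c (0.81). Within the family r was 0.89 between miR-29a-3p and miR-29b-3p and 0.74 between miR-29a-3p and miR-29c-3p. After the mean of each tissue and age was removed, over 769 libraries miR-29a-3p was most like miR-365-3p (0.87), miR-143-3p (0.86) and miR-107-3p (0.86), miR-29b-3p like miR-32-5p (0.88), miR-30a-5p (0.76) and miR-340-5p (0.75), and miR-29c-3p like miR-101a-3p (0.90), miR-19b-3p (0.82) and miR-30e-5p (0.82). In that setting miR-29a-3p had r = 0.87 with miR-29c-3p of the other cluster and 0.62 with miR-29b-3p. Scaled to miRNA reads only, these were 0.72 and 0.34, and the miRNAs most like miR-29a-3p were miR-365-3p (0.76), miR-101a-3p (0.70) and miR-30b-5p (0.69). The points share libraries and sequencing depth, and the median miRNA already had r = 0.56 with miR-29a-3p, so these values are descriptions.

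A list of 17 other miRNAs linked to fibrosis and the extracellular matrix passed rho of 0.5 in 15 of 272 miRNA and tissue pairs and -0.5 in 0, where 3.75% of all miRNA and tissue pairs passed 0.5. Of the 15, miR-155-5p, an inflammatory miRNA, gave 7 and miR-21a-5p, raised in many fibrotic tissues, gave 3. No other member of the list gave more than 1. The list shares the fibroblast markers miR-199a-3p, miR-199a-5p and miR-214-3p and the white blood cell marker miR-155-5p with the cell type lists.

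None of the 48 pairs of member and tissue differed between females and males (limma on log2 values, age as a factor, 1 to 21 months, adjusted p under 0.05), where 4.45% of 8838 miRNA and tissue pairs did. At an unadjusted p under 0.05 there were 3 pairs, and edgeR's quasi-likelihood test on recovered reads called 0. The 3 pairs were miR-29a-3p (-0.59 log2, SE 0.23, adjusted p = 0.108) and miR-29c-3p (-0.50, SE 0.22, adjusted p = 0.14) in limb muscle, lower in females, and miR-29a-3p in liver (0.35, SE 0.15, adjusted p = 0.135), higher in females. In limb muscle miR-29a-3p was 3731 ± 1687 rpmm in females (n = 13) and 5361 ± 2230 in males (n = 29). The 5p arms miR-29a-5p and miR-29b-2-5p were called there, at -0.76 (adjusted p = 0.0175) and -0.64 (adjusted p = 0.0324), as was miR-29b-2-5p in skin at 0.56 (adjusted p = 0.0295), a tissue in which 29.2% of miRNAs were called.

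The parabiosis cohort repeated the age contrast in other mice. Aged isochronic pairs (IA) were compared with young isochronic pairs (IY), and the limma fit over all miRNAs called 3 of 18 pairs of member and tissue, all higher in IA: miR-29b-3p and miR-29c-3p in limb muscle and miR-29b-3p in heart. Over all miRNAs, 8.13% of 3211 pairs were called, and in limb muscle and heart 14.5% and 18.6%. In limb muscle miR-29b-3p had a lowest, median and highest value of 3664, 3962 and 6028 rpmm in IY (n = 8) and 5775, 8267 and 10165 in IA (n = 8). The difference was 0.92 log2 (SE 0.18, adjusted p = 0.000228), and the groups overlapped only through IY mice 17A and 17B and IA mouse 7B. MiR-29c-3p had 2222, 2944 and 3381 rpmm in IY and 3161, 4106 and 5053 in IA, a difference of 0.53 log2 (SE 0.14, adjusted p = 0.00453). MiR-29a-3p had 4988, 6028 and 7193 rpmm in IY and 6733, 7127 and 8944 in IA, and its difference of 0.34 log2 missed the threshold (SE 0.12, adjusted p = 0.0596). It passed without IY mouse 17A (adjusted p = 0.036) or 17B (0.049). Across all miRNAs the median log2 difference in limb muscle was -0.11.

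In heart miR-29b-3p had 10518, 13223 and 16680 rpmm in IY and 15293, 20142 and 27359 in IA. The difference was 0.56 log2 (SE 0.13, adjusted p = 0.0105), and the ranges overlapped, as IY mice 15A and 10A lay above the lowest IA mouse. The heart libraries were spread unevenly over sequencing pools. In Para-7, 3 IY mice had 13455 to 16680 rpmm and 6 IA mice 17556 to 27359, in Para-8, 5 IY mice had 10518 to 14730 and 2 IA mice 15293 to 16030, so that the groups did not overlap within a pool, and with pool as a covariate the difference was 0.44 (adjusted p = 0.0331). The white blood cell miRNA sum in heart was 1047 to 1540 rpmm in IY and 1186 to 1764 in IA, and its part in the result was not tested. MiR-29a-3p and miR-29c-3p in heart differed by 0.09 (95% interval -0.17 to 0.35) and -0.10 (-0.38 to 0.19) log2. With the 4.5-month IY mice alone as the young group, which are close in age to the HY mice, the difference of miR-29b-3p in heart was 0.44 log2 with an adjusted p of 0.131 (4 IY mice).

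**Figure D5:**
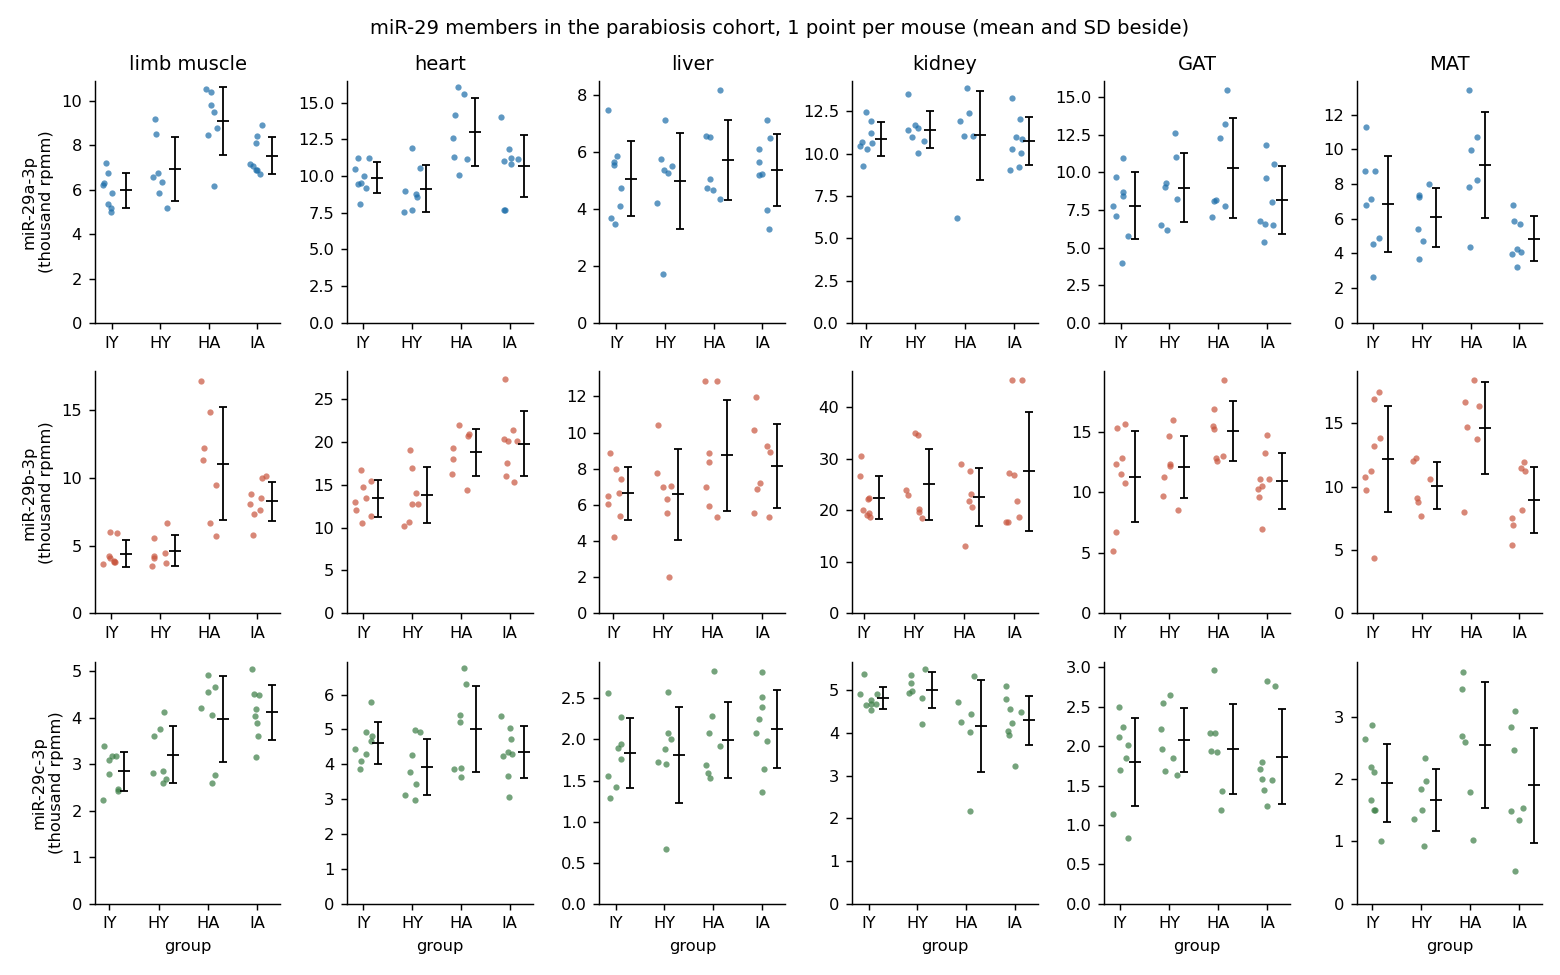
Levels of the miR-29 members (rows, in units of 1000 rpmm, linear axes from 0) in 6 tissues (columns) of the parabiosis cohort, 1 point per mouse, with the mean and SD beside the groups IY, HY, HA and IA. In limb muscle miR-29b-3p is low in IY and HY and high in HA and IA, and in liver the groups overlap for all members.

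In liver, which had the highest rho of miR-29b-3p and miR-29c-3p in the aging cohort, no member was called for IA against IY. MiR-29c-3p had 1288, 1829 and 2562 rpmm in IY and 1359, 2164 and 2824 in IA, with a difference of 0.21 log2 (95% interval -0.23 to 0.66). MiR-29b-3p differed by 0.28 (-0.23 to 0.79) and miR-29a-3p by 0.09 (-0.37 to 0.55). In kidney the differences of the members lay between -0.18 and 0.22 log2, in GAT between 0.01 and 0.08, and in MAT between -0.42 and -0.15, where the median of all miRNAs was -0.39. Without the MAT libraries closest to another tissue, miR-29a-3p, miR-29b-3p and miR-29c-3p in MAT differed by -0.32, -0.36 and -0.14 log2. The IY mice were joined to another mouse and all mice were male, unlike the aging cohort, and the levels of the cohorts were not compared because their tables were made separately.

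The contrast HA minus IA asks whether an aged mouse joined to a young one differs from an aged mouse joined to an aged one, and is termed rejuvenation (REJ) in the study, which named miR-29c-3p in liver from these libraries. No member was called in any tissue (0 of 18 in limma, edgeR and DESeq2), against 0.965% of 3211 miRNA and tissue pairs called by adjusted p. In limma, 5 pairs had an unadjusted p under 0.05, a level that the 0.965% does not describe. Over all miRNAs, such unadjusted values were most frequent in heart (138 of 516), followed by MAT and GAT. They were less frequent in limb muscle (32 of 495). MiR-29c-3p in liver had 1529, 1922 and 2835 rpmm in HA (n = 7) and 1359, 2164 and 2824 in IA (n = 8), and the difference was -0.09 log2 (95% interval -0.56 to 0.37). The 5 pairs were all higher in HA: miR-29a-3p in MAT (0.87 log2), heart (0.29) and limb muscle (0.26), and miR-29b-3p in MAT (0.72) and GAT (0.47). The median over all miRNAs in MAT was 0.38, and 1 of 6 HA libraries of MAT was among those closest to another tissue. Without the MAT libraries closest to another tissue, miR-29a-3p and miR-29b-3p differed by 0.74 and 0.68 log2 (adjusted p = 0.446 for each in limma).

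The contrast HY minus IY, termed accelerated aging (ACC), called 0 of 18 pairs, and 0 had an unadjusted p under 0.05. Neither edgeR nor DESeq2 called a pair, and over all miRNAs 0% were called. Differences ranged from -0.25 to 0.26 log2. In limb muscle miR-29b-3p had 3478, 4221 and 6695 rpmm in HY (n = 7) against 3664, 3962 and 6028 in IY, a difference of 0.06 (95% interval -0.33 to 0.44).

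Within the heterochronic pairs, HA minus HY called 4 of 18 pairs, all higher in HA, against 9.81% of all miRNA and tissue pairs. The 4 calls were in limb muscle and heart, where 11.9% and 19.6% of all miRNAs were called in either direction. HA and HY mice differ both in their own age and in strain, and these cannot be told apart here. In limb muscle miR-29b-3p had 5737, 11285 and 17160 rpmm in HA (n = 7) and 3478, 4221 and 6695 in HY (n = 7), a difference of 1.202 log2 (SE 0.20, adjusted p = 2.04e-05). HA mice 5A and 11A lay within the HY range and the other 5 above it. MiR-29a-3p there differed by 0.40 (SE 0.13, adjusted p = 0.0358), a call that 12 of 27 alternatives lost, among them leaving out any 1 of the mice 1A, 2B, 5B, 11B, 12A, 14A, 14B, 20A or 20B (adjusted p of 0.0572 to 0.0894). In heart miR-29a-3p had 10101, 12580 and 16047 rpmm in HA and 7523, 8781 and 11927 in HY, a difference of 0.50 (SE 0.14, adjusted p = 0.0088), and miR-29b-3p differed by 0.47 (SE 0.14, adjusted p = 0.0232). The latter call was lost in 3 of 27 alternatives, without mouse 2B (adjusted p = 0.0546), without mouse 20B (0.0556) and without pairs 19 and 20 (0.0529). The 5p arms miR-29a-5p, miR-29b-1-5p and miR-29b-2-5p were also called in heart, at 0.56, 0.47 and 0.80 log2, beside the 19.6% of all miRNAs called there. IA minus IY, HA minus IA, HY minus IY and HA minus HY share groups and are not independent. Mouse 14A, with the highest miR-29b-3p in HA limb muscle, also had 125848 rpmm of miR-206-3p, a miRNA of slow muscle fibers, against a median of 1905 over all 30 mice, and without it the difference of miR-29b-3p was 1.08 (adjusted p = 5.54e-05).

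The composition of the family in limb muscle followed the groups. Of the variance of the log2 ratio of miR-29b-3p to miR-29a-3p, 72.2% lay between the 4 groups and 0.427% between the 3 sequencing pools. In the pool Para-3, miR-29b-3p was 3664 to 4200 rpmm in 5 IY mice and 5775 to 8781 in 5 IA mice, with no overlap. White blood cell, red blood cell, endothelial and fibroblast miRNA sums overlapped between IY and IA in limb muscle, and epithelial miRNAs were near 0, at up to 20.1 rpmm in sum over the groups. The fibroblast sum ranged from 2801 to 4547 rpmm in IY and from 2061 to 3408 in IA, with medians of 3302 and 2654. The part of these cell types in the miR-29 values was not tested. The IA mice with the most miR-29b-3p, 19A and 19B, were the pair of the other substrain, and no alternative, their removal included, lost the call in IA minus IY (30 alternatives, 0.77 to 1.10 log2, adjusted p of 2.23e-07 to 0.0335).

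A difference between liver and the other tissues was tested within mice, as the liver log2 level minus the mean of the other tissues. Neither HA against IA nor IA against IY differed for any member (exact permutation tests over mice, two-sided, 6 tests, lowest adjusted p = 0.913, smallest possible p = 0.000155). Against limb muscle alone, the difference of miR-29b-3p between IA and IY was -0.64 log2 in liver minus limb muscle (adjusted p = 0.00373, exact permutation test). Limb muscle had the lowest adjusted p of miR-29b-3p in IA minus IY in these libraries, and this comparison is given because it passed. It draws on the same values as that call and is no separate evidence about liver.

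In the list of 17 miRNAs linked to fibrosis, 5 of 102 pairs were higher and 0 lower in IA than IY, 1 higher and 2 lower in HA than IA, 0 in either direction in HY against IY, and 9 higher and 1 lower in HA than HY. Over all miRNAs the shares called in either direction in these contrasts were 8.13%, 0.965%, 0% and 9.81%.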

How the data were processed

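Small RNA libraries of whole tissue were sequenced, and the authors mapped reads to mm10 (submitters' processing notes) with 1 mismatch allowed in miRMaster, took miRNA names from miRBase, and excluded libraries under 2 M aligned reads (M, 1000000 reads). The deposited values are a signal per 1000000 mapped reads of all RNA classes (rpmm). A total of 2 columns of the aging table matched no sample and were not used. Whole read counts could be recovered (tolerance 0.05 reads, values up to 1000 reads) for 98.97% of miRNA values in the aging and 98.84% in the parabiosis table deposited by the authors, but for only 43.75% of miR-29b-3p values in the parabiosis table, so its counts are partly fractional and were rounded. Scaling to all RNA classes means that a shift in other RNA classes moves every miRNA together.

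Groups came from the sample titles. The name of the strain of the HY mice is not reported here. Members and lists were chosen with earlier results of these data known. In each tissue miRNAs with at least 1 rpmm in 10% of libraries were kept, and log2(rpmm + 1) was fitted in limma 3.58.1 (R 4.3.3) over all of them, with Benjamini-Hochberg adjustment in each tissue and contrast and a call at 0.05. A fold change on this scale understates the change of low miRNAs. Rank correlations and permutation tests were run in Python 3.11.15 with scipy 1.17.1. Age values carry no test, since the members were chosen on them. Named miRNAs were the members, the 4 opposite arms, the 3 most similar miRNAs under each measure, and fixed lists as counts. MiR-206-3p in mouse 14A was named after its values were seen. Up to 6 mice per age were separate biological replicates by the study's methods, and the closest pair of libraries of a cohort differed by a chi-square of 26.1 per miRNA at the lowest depth, above sampling noise.

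Alternatives were other scalings, pseudocounts of 0.1 and 10 rpmm, other filters, edgeR 4.0.16 and DESeq2 1.42.0 on recovered read counts, subsets of ages and of IY mice, males only, plates, title-number sets, pair blocks, and leaving out each mouse. Pool as a covariate, removal of pairs 19 and 20, and removal of parabiosis libraries closest to another tissue were chosen after seeing the data. The fits were tested on simulated data.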

Additional observations from a re-analysis of the deposited data

Results flagged for a closer look

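Of 162 groups of 4 to 10 libraries, 5 held a library far from the others by Dixon's criterion, which flags about 1 in 20 groups by chance. MiR-29a-3p in brain at 21 months was 3409 rpmm in library 30, against 18040 to 25959 in the other libraries (n = 6). This library falls in the set of numbers 25 to 36 and had a summed miRNA level of 208380 rpmm, against 477334 to 711123. In GAT at 3 months, library 16 was high for miR-29b-3p, at 17524 rpmm against 6459 to 7465, and for miR-29c-3p, at 2261 rpmm against 1206 to 1399 (n = 5), with a summed miRNA level of 496859 rpmm against 261653 to 418042. MiR-29b-3p in liver at 3 months was low in library 14, at 2716 rpmm against 4269 to 5154 (n = 6), which adds to the spread of the young group. MiR-29c-3p in kidney was high in IY mouse 17A, at 5395 rpmm against 4549 to 4923 (n = 8).

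The change of miR-29b-3p from IY to IA differed between liver and limb muscle of the same mice, by -0.64 log2 (liver minus limb muscle, exact permutation test, adjusted p = 0.00373), while against the mean of the other tissues no member differed. The same change was already called in limb muscle from these libraries, so this is no separate evidence about liver.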

How the results depend on the processing

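No called age correlation or parabiosis contrast was reversed by any alternative run. Ratios of 21 to 3 months that had passed 3/2 did fall below 1 under other scalings. MiR-29b-3p in kidney went from 1.77 to 0.80 scaled to miRNA reads only and 0.73 by median-ratio size factors. MiR-29c-3p in brain went from 1.67 to 0.96 by median-ratio size factors. The ratio also crossed 1 without 1 library in 7 of 42 pairs of member and tissue. These were in GAT, MAT, pancreas and SCAT, and 0 of them had passed 3/2. Scaled to miRNA reads only, 9 neighboring tissue pairs differed instead of 4, and by median-ratio size factors also 9. Without the 1-month libraries 8 of the age correlations passed instead of 17. Against limb muscle alone, 1 difference of liver was called instead of 0. HA minus HY gave 2 calls without pairs 19 and 20 instead of 4, losing miR-29b-3p in heart (adjusted p = 0.0529 in limma) and miR-29a-3p in limb muscle (0.0991). Leaving out 1 mouse gave 2 to 4 calls in HA minus HY (2 without 2B or 20B), 3 to 4 in IA minus IY, 0 to 0 in HA minus IA, HY minus IY and liver against other tissues, and 22 to 26 ratios of 21 to 3 months. MiR-29b-3p in heart, IA minus IY, was lost only with IY mice of 4.5 months (adjusted p = 0.131), where the young group is smaller, and miR-29a-3p in limb muscle was gained under 7 alternatives, among them edgeR (0.00772) and DESeq2 (0.0018). In HA minus HY, miR-29c-3p was gained in heart with pool as a covariate (adjusted p = 0.0465) and in kidney without mouse 20A (-0.39 log2, 0.0441). The cause was not tested.

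With the parabiosis pair as a random replicate block the calls were 3 in IA minus IY, 0 in HA minus IA, 0 in HY minus IY and 4 in HA minus HY, and with the pair as a fixed block 3 in HA minus HY, losing miR-29a-3p in limb muscle (adjusted p = 0.121). Partners deviated together over all miRNAs (r above 0.1) in 7 of 7 heterochronic pairs in liver, 6 of 7 in heart, 5 of 7 in limb muscle, 3 of 6 in kidney, 2 of 7 in GAT and 2 of 5 in MAT. The lowest r of a pair was -0.69 in GAT, -0.47 in MAT and -0.41 in kidney. For the 3 members, r between partners ran from -0.20 to -0.003 in liver, 0.65 to 0.86 in heart and 0.22 to 0.60 in limb muscle. It ran from 0.61 to 0.99 in kidney, -0.35 to -0.15 in GAT and -0.48 to 0.45 in MAT. Groups of 6 to 8 mice limit what a parabiosis contrast can show.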
